A study of Homo sapiens with 2 samples.

Results

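A set of 10 genes of the feedback and output layer of the ERK mitogen-activated protein kinase (MAPK) pathway was followed in AGS cells, a human line grown from an adenocarcinoma of the stomach. They were DUSP4, DUSP5, DUSP6, SPRY2, SPRY4, SPRED1, ETV4, ETV5, PHLDA1 and EGR1. All probe sets that the platform annotation assigns to these 10 genes and to no other gene were taken, 28 of the 54675 on the array. Each of the 10 had between 1 and 6 of them. The annotation names 19775 genes in this way. The silenced group was 1 one-colour Affymetrix array of AGS cells treated with a small interfering RNA against galectin-3 (LGALS3), and it was set against 1 array of AGS cells labelled as control. How the control cells were treated, how long after transfection RNA was taken and which sequence the small interfering RNA had were not described in the labels. Both arrays come from the same cell line, so every value describes that line. With 1 array per group no difference has a replicate check, and no p-values were computed.

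Signals through growth factor receptors pass through RAS, RAF and MEK to the kinase ERK, which enters the nucleus and switches on genes within minutes to hours. Some of these genes encode brakes on the pathway: dual-specificity phosphatases (DUSP) that remove the activating phosphates from MAP kinases, and Sprouty (SPRY) and SPRED proteins that act further upstream. Others encode transcription factors, among them EGR1 and the ETS factors ETV4 and ETV5. Transcripts of such genes are often read together as a gauge of ERK output in epithelial tumours.

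The targeted gene was checked first. LGALS3 had a signal of 2699.8 on the silenced array, against 20206.3 on the control array, which is 13.4% of the control. Its log2 ratio was -2.90, while its other probe set lay under the background floor on both arrays. The floor was the signal below which 95% of olfactory receptor probe sets lay, 109.5 on the silenced array and 138.4 on the control array. Where 1 array was under its floor the ratio is a bound, and where both were there is none. Of 10514 genes measured on at least 1 array, 3.31% were 2-fold higher or more on the silenced array and 3.07% were 2-fold lower or more, each gene being read from 1 probe set. All 6 epithelial markers were above the floor on both arrays and all 6 were brighter on the silenced array, with a median log2 ratio of 0.34, from 1.03-fold for EPCAM to 2.12-fold for CLDN4, and with summed signals of 112461 on the silenced array and 92177 on the control array, and their part in the differences between the arrays was not tested. The 4 leukocyte markers with a probe set were under the floor on both, as were 5 of 6 fibroblast and 2 of 3 endothelial markers. COL1A1, with 1502 and 816.3 on the silenced and control arrays, and PECAM1, with 121 and 127.4, were the exceptions. The ratio of the 3' to the 5' probe set, a sign of RNA quality, was 1.13 on the silenced array and 1.14 on the control array for ACTB, and 0.936 and 0.980 for GAPDH. In RNA from whole cultures, fewer cells of a kind and less RNA per cell cannot be told apart.

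The 10 genes did not move as a block. PHLDA1 and DUSP4 were higher on the silenced array with every probe set, ETV4 and ETV5 were lower with every probe set above the floor, and DUSP6, SPRY2 and SPRY4 lay near the control. EGR1 and SPRED1 depended on which of their probe sets was read. Of the 28 probe sets 26 were above the floor on at least 1 array, with 8 at least 2-fold higher, 3 lower by 2-fold or more and 15 short of 2-fold. Over all 20059 measured probe sets with 1 gene symbol, 3.18% passed 2-fold upwards and 3.12% downwards. Probe sets of a gene read the same RNA and are no replicates, so the 8 and the 3 stand for fewer genes.

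**Figure D1:**
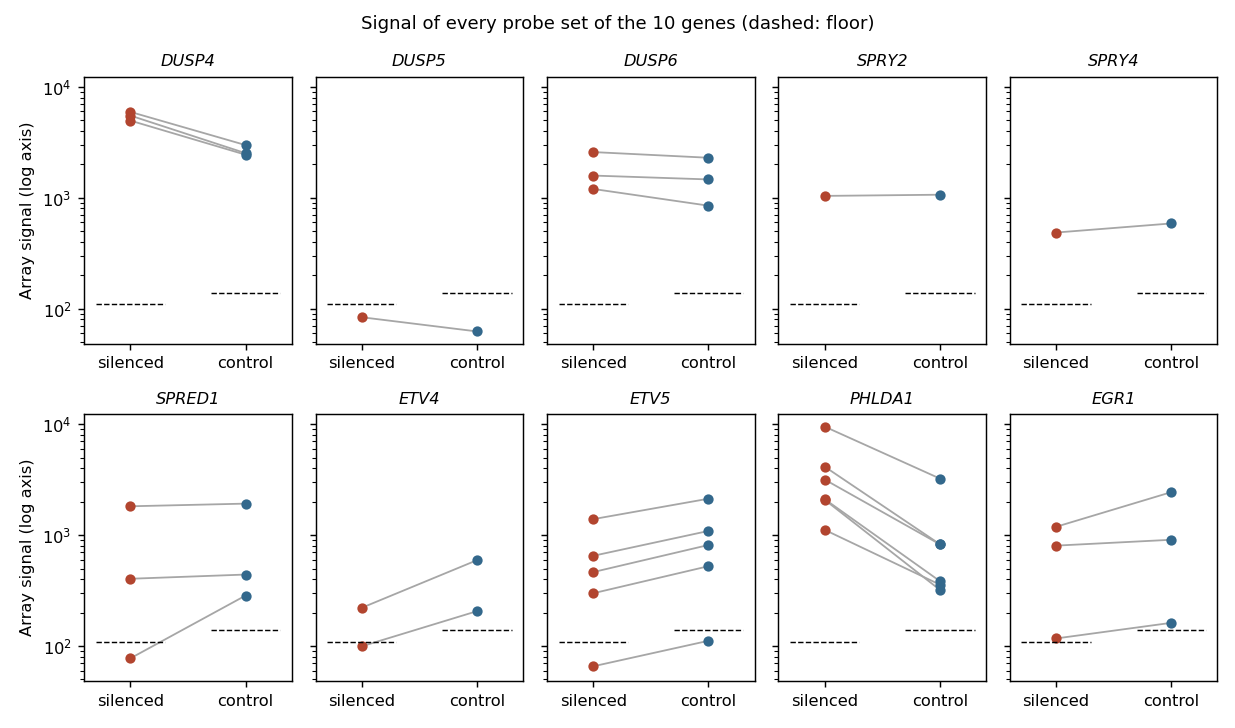
Signals of all 28 probe sets of the 10 genes on the silenced array (left in each panel) and the control array (right), on a log axis; a line joins the values of 1 probe set and dashed lines mark each array's floor (109.5 silenced, 138.4 control). All lines of PHLDA1 and DUSP4 are higher on the silenced array, those of ETV4 and ETV5 lower, and DUSP5 lies under the floor on both arrays.

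Read gene by gene, 9 of the 10 were measured and DUSP5 was not. By the probe set with the highest mean signal, 1 gene (PHLDA1) passed 2-fold upwards, 2 (ETV4 and EGR1) passed it downwards and 6 stayed short of it. Over all genes the shares were 3.31% upwards and 3.07% downwards. The median log2 ratio of the 9 genes was -0.08, beside -0.02 over all 10514 genes. The counts of 1 and 2 among 9 are small, and with 1 array per group they describe these arrays and not the conditions. The 9 genes had mean log2 signals from 8.50 to 12.44, and of the 6875 genes in that range 3.52% passed 2-fold upwards and 3.17% downwards.

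**Figure D2:**
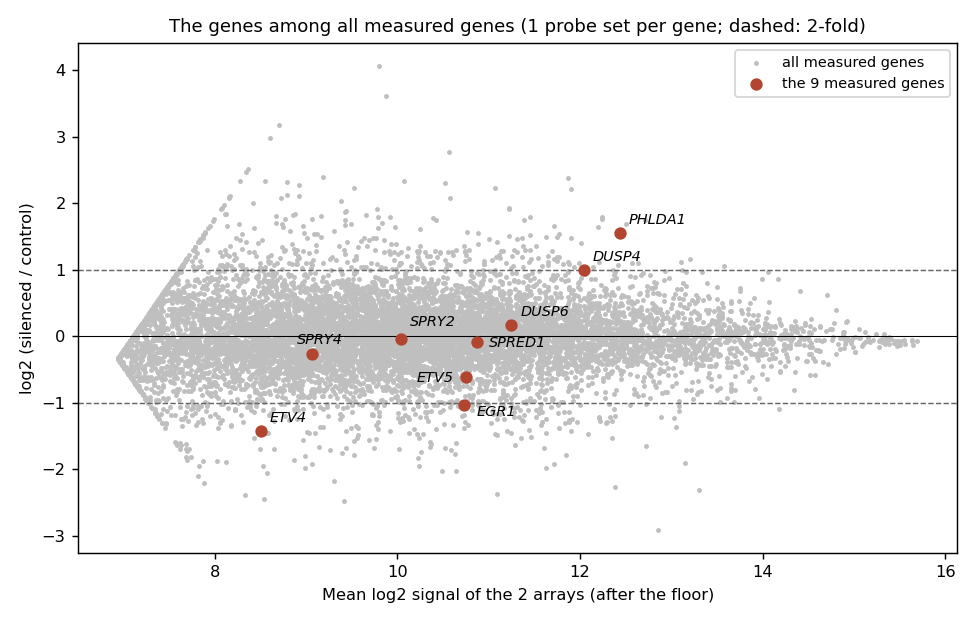
Log2 ratio of silenced over control against the mean log2 signal, 1 point for each of 10514 measured genes (grey) and the 9 measured genes of the set (red), with dashed lines at 2-fold. PHLDA1 lies above the upper line, DUSP4 at it, EGR1 just past the lower line and ETV4 further below it, while DUSP6, SPRY2, SPRY4 and SPRED1 lie within the bulk of the genes.

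The phosphatases came first in the feedback layer. DUSP4, a nuclear phosphatase that acts on ERK and also on the stress kinase JNK, had 4956.6, 5937.5 and 5502.6 on its 3 probe sets in silenced cells, against 2440.1, 2980.6 and 2518.8 in control cells. Each probe set was close to 2 times as bright on the silenced array. The log2 ratios were 1.02, 0.99 and 1.13, or 2.03-fold, 1.99-fold and 2.18-fold higher, and their SD over the 3 probe sets was 0.07. This compares with an SD of 0.32 between probe sets of one gene over the 4728 genes with at least 2 probe sets that exceeded the floor on both arrays. In the count by gene DUSP4 was represented by the one at 1.99-fold, just under the 2-fold line, and it ranked 355 from the highest of 10514 genes. Under 5 of 13 alternatives of processing it passed 2-fold.

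DUSP6, a cytoplasmic phosphatase with a strong preference for ERK, differed little. Its 3 probe sets had 2580, 1584.5 and 1200.1 in silenced cells, against 2293, 1462.2 and 848.2 in control cells. The log2 ratios were 0.17, 0.12 and 0.50, all above 0 and all under 2-fold. The first 2 of these are of a size that the scaling of the arrays decides: with the poly-A controls set equal they were -0.06 and -0.12. DUSP5, a nuclear phosphatase specific for ERK, had 83.8 in silenced cells and 62.4 in control cells on its only probe set, both under the floor, so that no ratio can be given.

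The Sprouty and SPRED genes encode inhibitors that act between receptors and RAF. SPRY2 had 1038.9 in silenced cells and 1064.8 in control cells, a log2 ratio of -0.04, close to the middle of all genes. SPRY4 had 485.7 in silenced cells and 586.7 in control cells, a log2 ratio of -0.27, with 26.3% of genes lower still. Each was read from a single probe set, so no second reading stands beside these values. SPRY2 turned to 0.15 with the hybridization controls set equal and has no settled direction. SPRY4 stayed below 0 under all 6 other scalings, between -0.51 and -0.09. Rescaling is no replicate, and -0.27 is smaller in size than the SD of 0.32 between probe sets of one gene.

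SPRED1, which brings the RAS inhibitor neurofibromin to the membrane, gave 2 different readings. The first 2 of its 3 probe sets had 1818 and 404.1 in silenced cells, against 1921.2 and 441.1 in control cells, with log2 ratios of -0.08 and -0.13. The remaining probe set had 77.5 in silenced cells, under the floor, and 285.5 in control cells, which makes SPRED1 at least 2.61-fold lower by this probe set alone. That bound depends on the floor and was a log2 ratio of -0.38 with a floor 2 times higher and -1.88 without one. Which transcripts each probe set reads was not tested.

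**Figure D3:**
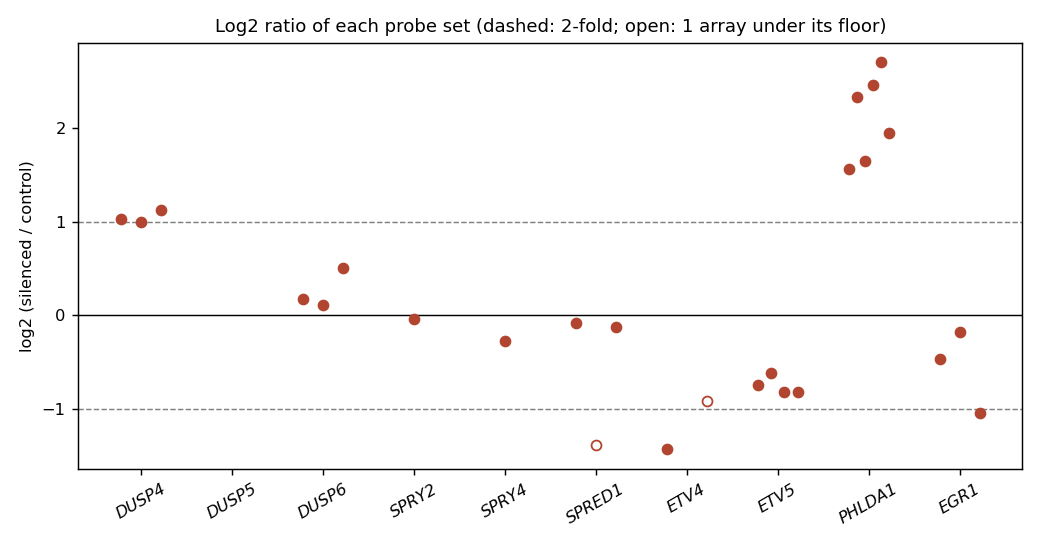
Log2 ratio of silenced over control for each of the 26 measured probe sets, grouped by gene; filled points were above the floor on both arrays, open points on 1 array only (a bound), and dashed lines mark 2-fold. The 6 PHLDA1 probe sets spread from 1.56 to 2.70, the 4 ETV5 probe sets from -0.81 to -0.61, and 1 probe set each of SPRED1 and EGR1 lies apart from the others of its gene.

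ETV4 and ETV5 are ETS transcription factors of the PEA3 subfamily, made in response to ERK and fibroblast growth factor signalling, and they bind the DNA core GGAA. ETV4 had 221.3 in silenced cells and 594.7 in control cells on its brighter probe set, a log2 ratio of -1.43 or 2.69-fold lower. It ranked 88 from the lowest of 10514 genes. The dimmer ETV4 probe set had 99.5 in silenced cells, under the floor, and 206.4 in control cells, at least 1.88-fold lower. Both probe sets were therefore lower on the silenced array.

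ETV5 was lower by less but with more probe sets. The 4 above the floor had 650.5, 1392.1, 299.1 and 464.1 in silenced cells, against 1090, 2127.5, 524.6 and 814.2 in control cells. Their log2 ratios were -0.74, -0.61, -0.81 and -0.81, or 1.53-fold to 1.75-fold lower, with an SD of 0.09 over the 4. None reached 2-fold. Of 2009 genes with at least 3 probe sets that exceeded the floor on both arrays, 27.1% had every such probe set lower, so agreement in direction alone was common. The other ETV5 probe set, with 65.7 in silenced cells and 111.6 in control cells, was under the floor on both arrays.

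PHLDA1, a protein with a pleckstrin homology-like domain that is made in response to growth factors and has been linked to cell survival and death, stood out. Its 6 probe sets had 9499.1, 4142, 1116.1, 2109.8, 2084.1 and 3168.6 in silenced cells, against 3230.4, 826.8, 357.5, 384.6, 320.8 and 825.7 in control cells. Every probe set was higher on the silenced array, and all 12 signals were above the floor. The log2 ratios were 1.56, 2.32, 1.64, 2.46, 2.70 and 1.94, that is from 2.94-fold to 6.50-fold higher. The brightest probe set, which represented the gene, gave the lowest of these, and the median of the 6 was 2.13. Their SD of 0.46 exceeded the usual 0.32 between probe sets of a gene, so the size of the difference was less settled than its direction. Of 88 genes with at least 6 probe sets that exceeded the floor on both arrays, PHLDA1 was the only one with every such probe set at least 2-fold higher, and 17 of the 2009 genes with at least 3 had the same.

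EGR1, a zinc finger transcription factor and one of the first genes to answer ERK, was lower on all 3 probe sets but by very different amounts. They had 117.1, 803.6 and 1187.4 in silenced cells, against 162, 907.7 and 2438.8 in control cells. The first was just above the floor on both arrays, 109.5 silenced and 138.4 control. The log2 ratios were -0.47, -0.18 and -1.04. The second turned to 0.005 under 1 other scaling, and the third alone passed 2-fold, at 2.05-fold lower. The range of 0.86 between the 3 ratios was equalled or exceeded in 10.9% of the 4728 genes with several probe sets. With the median of the 3 probe sets in place of the brightest, EGR1 had a log2 ratio of -0.47, the value of the dim first probe set, and did not pass. With the hybridization controls set equal EGR1 had -0.86, also short of 2-fold.

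The promoters of 6 of the 10 genes were in the RefSeq table used (build GRCh38.p14), and the 250 bases before each transcription start were searched on both strands for 4 motifs. These were the ETS core CCGGAA, the CArG box bound by serum response factor, TGACGT, which is the core of the cyclic AMP response element, and TGANTCA, the AP-1 site. Among 35116 promoters of all genes, 14.5% hold the first, 1.16% the second, 7.10% the third and 6.57% the fourth. Matches were found for EGR1, PHLDA1 and 1 of 3 starts of SPRY2, and these sequences are shown because they set a gene that was higher with every probe set beside a gene with uneven lower readings and a gene near the control. They are written 5' to 3' on the strand of the gene, and capitals mark the matches.
PHLDA1: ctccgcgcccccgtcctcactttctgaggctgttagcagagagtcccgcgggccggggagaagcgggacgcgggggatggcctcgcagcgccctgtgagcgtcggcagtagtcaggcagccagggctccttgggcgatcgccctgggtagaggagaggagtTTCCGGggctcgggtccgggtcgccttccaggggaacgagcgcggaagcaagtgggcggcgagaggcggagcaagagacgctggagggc
EGR1: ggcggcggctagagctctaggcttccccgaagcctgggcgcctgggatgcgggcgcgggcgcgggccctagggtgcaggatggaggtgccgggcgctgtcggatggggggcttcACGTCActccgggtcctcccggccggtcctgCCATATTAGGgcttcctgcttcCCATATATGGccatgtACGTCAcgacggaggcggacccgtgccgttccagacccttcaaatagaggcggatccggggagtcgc
SPRY2: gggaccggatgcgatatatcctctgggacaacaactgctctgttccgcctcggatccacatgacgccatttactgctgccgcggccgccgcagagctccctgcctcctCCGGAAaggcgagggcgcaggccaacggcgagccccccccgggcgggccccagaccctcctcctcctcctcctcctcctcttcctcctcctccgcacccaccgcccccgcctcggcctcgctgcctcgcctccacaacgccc

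The PHLDA1 sequence is chr12:76031777-76032026 on the minus strand and holds 1 ETS core, beginning 89 bases before the start. The EGR1 sequence is chr5:138465229-138465478 on the plus strand. It holds 2 CArG boxes, beginning 105 and 83 bases before the start, and 2 TGACGT matches, beginning at 136 and 67 bases and both on the minus strand. No matches overlap. The SPRY2 sequence is chr13:80341127-80341376 on the minus strand, with 1 ETS core beginning 142 bases before the start. In DUSP6, SPRED1 and SPRY4 none of these letter strings was in this window. A match describes the sequence and shows no binding.

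The other genes of the pathway were read in 5 lists. Among 7 other MAPK phosphatases 6 were measured, 2 passed 2-fold upwards and 0 downwards, beside shares of 3.31% and 3.07% over all genes. The list had a median log2 ratio of 0.73, beside -0.02 over all genes, and its median ran from 0.46 to 0.99 over 13 alternatives. The middle values of the list were those of DUSP1 and DUSP8. DUSP8 had 191 in silenced cells and 100.5, under the floor, in control cells, at least 1.38-fold higher. Another DUSP8 probe set gave a bound with no direction. DUSP10, which prefers JNK and p38 over ERK, had 804.3 in silenced cells and 237.3 in control cells, 3.39-fold higher. Its second probe set had 519.9 in silenced cells and 122.7, under the floor, in control cells, at least 3.76-fold higher. DUSP16, which also prefers JNK and p38, had 2544.6 in silenced cells and 1158.4 in control cells, 2.20-fold higher, with log2 ratios of 1.12 and 0.97 on its other probe sets. With the poly-A controls set equal DUSP16 had 0.90, short of 2-fold. DUSP1, the immediate early phosphatase of this family, had 938.3 in silenced cells and 473.6 in control cells, a log2 ratio of 0.99, and 0.42 on its other probe set. DUSP7, a cytoplasmic ERK phosphatase, had a log2 ratio of -0.21 and DUSP2, a nuclear phosphatase, -0.30. DUSP1, DUSP2, DUSP7 and DUSP8 were singled out after their values were seen.

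Of 4 other Sprouty and SPRED genes, SPRY1 and SPRED2 were measured and neither passed 2-fold, beside shares of 3.31% upwards and 3.07% downwards over all genes. SPRED2 had 2420.5 in silenced cells and 2422.2 in control cells, while its dimmer probe set had 108.6, under the floor, in silenced cells and 164.3 in control cells, a bound of -0.58 on the log2 ratio. SPRY1 had 917 in silenced cells and 1093.4 in control cells, a log2 ratio of -0.25, while its dimmer probe set had 110.8 in silenced cells, just above the floor, and 241.4 in control cells, a log2 ratio of -1.12. In both genes, as in SPRED1, a dim probe set was lower while a brighter one was near the control.

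Among 13 other ETS factors 12 were measured, 1 passed 2-fold upwards and 0 downwards, beside 3.31% and 3.07% over all genes. The median was 0.26, with 10 genes above 0 and 2 below, beside 5112 and 5049 over all genes. That median ran from 0.02 to 0.44 over 13 alternatives. ETV3, ELK3, ELK4 and GABPA counted as above 0, but each also had a probe set below it, from -0.21 for ELK3 to -0.03 for GABPA. ETS1 counted as below 0 and also had a bound of 0.23. EHF, an ETS factor of epithelial cells, had 459.5 in silenced cells and 33.1, under the floor, in control cells, at least 3.32-fold higher. ETV1, the third gene of the PEA3 subfamily, had 179.1 in silenced cells and 116, under the floor, in control cells, at least 1.29-fold higher, and this gene was picked out with its value known. ELK1 counts as not measured because _x_at probe sets were left out where a gene had another, and its other was under the floor on both arrays. Its _x_at probe sets had 931.9 and 415.6 in silenced cells, against 462.2 and 353.1 in control cells, 2.02-fold and 1.18-fold higher. ELK1, ETV3, ELK3, ELK4, GABPA and ETS1 were also singled out after their values were seen.

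Of 23 other immediate early and ERK-responsive genes 17 were measured, with 2 past 2-fold upwards and 0 downwards, beside shares of 3.31% and 3.07% over all genes. The list had a median of -0.01. That median is the value of FOSB, a bound with no direction, and without FOSB it was 0.07. It lay on the other side of 0 in 8 of 13 alternatives, between -0.24 and 0.27, so the list has no settled direction. TRIB1, a pseudokinase that binds MEK and a ubiquitin ligase, had 5967 in silenced cells and 2048.6 in control cells, 2.91-fold higher, with a log2 ratio of 1.45 on its second probe set. The cytokine LIF had 710.5 in silenced cells and 319.9 in control cells, 2.22-fold higher, and a log2 ratio of 0.92, short of 2-fold, with the poly-A controls set equal. CCND1, the cyclin that ERK signalling raises in G1, had a log2 ratio of -0.89, and -0.43 on its other probe set. SRF, the factor that binds the CArG box, had a log2 ratio of -0.53 on each of its measured probe sets. FOS, at -0.15, and MYC, at -0.15, lay near the control. KLF6 had a log2 ratio of 0.88, with 0.93, 1.09 and 0.94 on other probe sets and a bound of 0.18 on its dimmest. ATF3 had 0.75, and 0.54 on its other probe set, and FOSL1 had 0.54. Leaving out FOSB, 8 genes of the list were above 0 and 8 below. CCND1, SRF, KLF6, ATF3, FOSL1, FOS and MYC were singled out after their values were seen.

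In the core of the cascade, from receptors to kinases downstream of ERK, 19 of 26 listed genes were measured and 0 passed 2-fold in either direction, with a median of -0.02. Over all genes the shares were 3.31% and 3.07%, so a count of 0 among 19 is near the background. The gene with the largest ratio was SOS1, an exchange factor that loads RAS with GTP, with 765.4 in silenced cells and 1346.6 in control cells, a log2 ratio of -0.82, which passed 2-fold, at -1.05, with the poly-A controls set equal. Its 4 probe sets ran from -0.82 to -0.25. The adaptor GAB1 had 387.2 in silenced cells and 567.9 in control cells, a log2 ratio of -0.55, and all 4 of its probe sets were lower. In contrast SOS2 had a log2 ratio of 0.51, and all its measured probe sets were higher, from 0.22 to 0.92. HRAS had -0.54. The kinases MAP2K1 and MAPK3 had log2 ratios of 0.10 and 0.18, and MAP2K2 had -0.37, with 0.10 on its other probe set. In the list 9 genes were above 0 and 10 below. SOS2, HRAS, MAP2K1, MAPK3 and MAP2K2 were singled out after their values were seen. All these values are transcript signals and say nothing of the phosphorylation of the kinases.

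**Figure D4:**
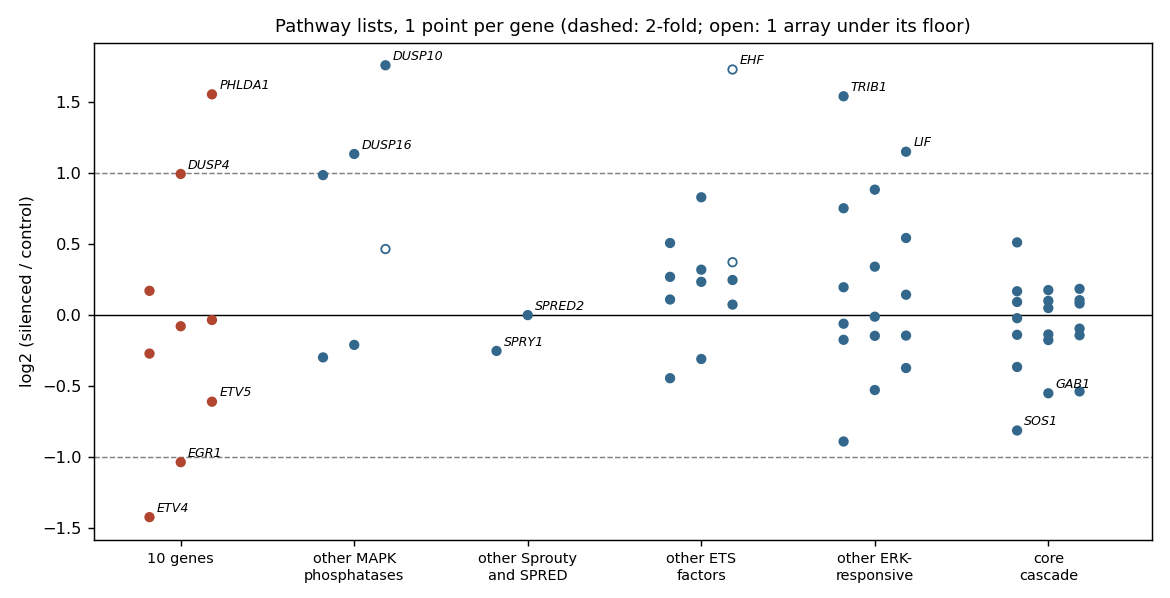
Log2 ratio of silenced over control for the measured genes among the 10 (red) and for 5 lists of other pathway genes (blue), 1 point per gene, with dashed lines at 2-fold and open points for bounds; 1 bound with no direction (FOSB) is not drawn. The other MAPK phosphatases reach 1.76 (DUSP10), the core cascade stays between -0.82 (SOS1) and 0.51, and the 10 genes lie on both sides of 0.

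The order of the 9 measured genes was the same under any scaling that moves all genes alike, but the distance from 0 was not. Over 6 other scalings PHLDA1 ran from 1.32 to 1.74, DUSP4 from 0.76 to 1.18, ETV5 from -0.85 to -0.43, EGR1 from -1.27 to -0.86 and ETV4 from -1.66 to -1.24 on the log2 scale. Setting the hybridization controls equal moved the median of all genes to 0.17 and setting the poly-A controls equal moved it to -0.25. Relative to that median PHLDA1 lay between 1.54 and 1.58, DUSP4 between 0.97 and 1.01, ETV5 between -0.64 and -0.60, EGR1 between -1.07 and -1.02 and ETV4 between -1.44 and -1.41. Setting the array medians, the hybridization controls or the poly-A controls equal multiplies 1 array by a constant. Those settings could hardly change such distances, so these narrow ranges are a limited check.

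**Figure D5:**
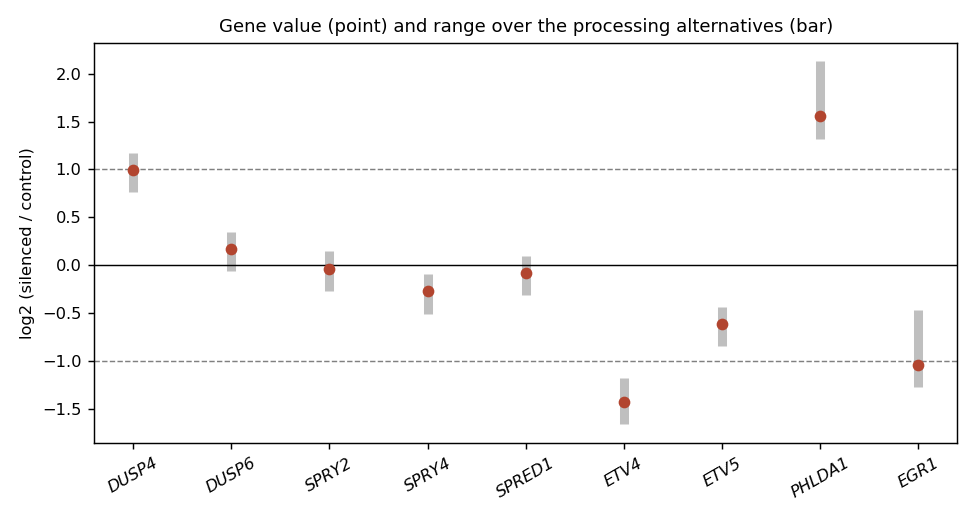
Log2 ratio of silenced over control for each of the 9 measured genes as reported (point) and its lowest and highest value over the processing alternatives (bar), with dashed lines at 2-fold. The bars of PHLDA1 (1.32 to 2.13) and ETV4 (-1.66 to -1.17) stay past 2-fold, those of DUSP4 and EGR1 cross a 2-fold line, and those of DUSP6, SPRY2 and SPRED1 cross 0.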

How the data were processed

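RNA of 2 AGS cultures was extracted with Trizol, labelled with biotin and measured on one-colour Affymetrix arrays (source: the labels' protocols). Each deposited value is a linear intensity per probe set, which the authors computed in MAS5 according to the submitters' processing notes. Its version, scaling target and filters: not given in the sources used here. Both arrays had a 2% trimmed mean of 500.07, and the deposited scaling was kept. After such scaling a change in total RNA per cell cannot be seen. MAS5 treats each array by itself, and its dim signals are noisy.

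Groups follow the sample titles, 1 array in each. Probe sets were named from the platform's annotation, and those with several symbols (1801) or no symbol (11777) named no gene. The floor was the 95th percentile of 135 olfactory receptor probe sets on each array, and dimmer signals were raised to it. Each gene was read from the probe set of highest mean log2 signal, without _x_at probe sets where it had another. The log2 ratio is silenced minus control. With no replicates, genes were counted by size (2-fold), and precision is limited by the number of arrays. The calculation was tested on simulated data.

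All 10 genes are named with every probe set, and in each other list the genes past 2-fold, up to 4, or the 2 largest above the floor on both arrays. Genes without a probe set of 1 symbol were not analysed here. The members and lists were chosen with earlier results of these data known. A total of 13 alternatives of scaling, floor, offset and probe set choice were tried. Python 3.11.15, pandas 2.3.3 and statsmodels 0.14.6 were used.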

Additional observations from a re-analysis of the deposited data

How the results depend on the processing

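Of the 10 genes, PHLDA1 stayed at least 2-fold higher and ETV4 at least 2-fold lower under all 13 alternatives. The count of genes at least 2-fold higher was 2 in place of 1, by the addition of DUSP4, with the arrays set to the same median, the hybridization controls set equal, a lowess curve on all probe sets, the median over a gene's probe sets, and without _s_at and _x_at probe sets. The count at least 2-fold lower was 1 in place of 2 in the hybridization, probe set median and no _s_at or _x_at settings, in each case by the loss of EGR1, which has no probe set in the last. The median of the 10 genes ran from -0.31 to 0.10 and turned above 0 with the hybridization controls set equal. Over all genes, 348 were higher and 323 lower (51.9% higher). With the hybridization controls set equal there were 576 and 183 (75.9% higher), with the poly-A controls set equal 186 and 633 (22.7% higher), and without a floor 2466 and 2459. The median of the other Sprouty and SPRED genes was -0.49 with the median over a gene's probe sets. Among the lists of other pathway genes, setting the poly-A controls equal took the count at least 2-fold higher to 1 in place of 2 for the MAPK phosphatases and for the immediate early genes, and the count at least 2-fold lower to 1 in place of 0 for the immediate early genes and the core cascade. The count of ETS factors at least 2-fold higher was 2 in place of 1 with the hybridization controls set equal and 0 with a floor 2 times higher. Without a floor the ETS factors and the immediate early genes each had 1 in place of 0 at least 2-fold lower, and the core cascade 1 in place of 0 at least 2-fold higher. The floor without olfactory receptor pseudogenes was chosen after seeing the data and moved EHF to 2.39. EHF had 0.73 with a floor 2 times higher and 3.80 without one, so its size is set by the floor. No replicate could be left out, and no paired analysis was possible because each group has 1 array.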
